A study of Homo sapiens with 3 samples.

Results

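The genes described here are 43 enzymes of purine and pyrimidine nucleotide metabolism in MCF10A, a human cell line of breast epithelium that is immortalized but does not form tumours. They cover synthesis from small precursors, salvage of free bases and nucleosides, reduction to deoxynucleotides, and breakdown. The genes were chosen by symbol and not by a rule on their measured values, although earlier results of these data were known. All 43 were found by Ensembl identifier among the 62754 genes in the deposited table. RNA-seq was measured in 3 replicates of cells in exponential growth. The cells carried the retroviral Tet-One vector with no gene inserted and had been selected with puromycin, and they were collected without doxycycline or any other treatment. All 3 replicates therefore share 1 genotype, 1 condition and 1 batch, and there was no control group to set them against. The labels do not say whether the replicates came from separate cultures, so the spread between them may be technical. For each library, ribosomal RNA was removed from 300 ng of total RNA.

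Nucleotides are built in cells along separate routes that meet at a shared pool. Purines are assembled step by step on phosphoribosyl pyrophosphate (PRPP) until inosine monophosphate (IMP) is formed, which is then turned into AMP or GMP, whereas the pyrimidine ring is closed first and joined to PRPP afterwards. Salvage enzymes recover bases and nucleosides, ribonucleotide reductase supplies deoxynucleotides for DNA, and dividing cells are known to draw on all of these routes to copy their genome.

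The level of each gene is given in TPM (transcripts per 1000000), a unit in which reads are divided by the length of the gene and scaled to that common total, so that levels of different genes can be set side by side per length. In bulk RNA, fewer cells expressing a gene and less RNA per cell cannot be told apart. From the TPM values and the gene lengths, 15273329, 15446347 and 11166546 reads were recovered for replicates 1, 2 and 3, if the smallest step between values is 1 read. Of these, the 43 genes took 78481, 77065 and 56354 reads, from 19 reads over all replicates for CDA to 26146 reads for PAICS. Replicate 3 was the shallowest. It was also the lowest of the 3 in deposited TPM for 78.5% of the 11360 protein-coding genes at or above 1 TPM, and held more of its TPM outside protein-coding genes, with 79.6% inside them against 91.5% and 89.8% in replicates 1 and 2. The basal keratins KRT5 and KRT14, with means of 6612 and 4144 TPM, and the epithelial genes CDH1 and EPCAM were present. Of the luminal genes, KRT18, KRT8 and GATA3 had means of 413, 118 and 12.8 TPM, whereas KRT19 and ESR1 were below 1 TPM. The leukocyte gene PTPRC and the fibroblast genes COL1A2 and PDGFRB were below 1 TPM, while COL1A1 and the endothelial gene PECAM1 had means of 4.96 and 1.77 TPM. The proliferation marker MKI67 was measured at 211 ± 44.8 TPM.

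All 43 genes were at or above 1 TPM, whether the mean or any single replicate was read. The cutoff of 1 TPM is the one the study used to decide which enzymes enter its metabolic model. In the background, 24.9% of all 62754 genes and 56.7% of the 20046 protein-coding genes had such a mean, and 55.2% of protein-coding genes passed it in every replicate. Means of at least 10 TPM were measured for 35 of the 43 genes (41.7% of protein-coding genes), and means of at least 100 TPM for 18 (7.86% of protein-coding genes, and 13.9% of those at or above 1 TPM). The median of the 43 means was 69.8 TPM, against 24.9 TPM for protein-coding genes at or above 1 TPM, and 31 of the 43 genes lay above the latter value. Together the genes summed to 4632, 4382 and 3864 TPM in replicates 1, 2 and 3 (4293 ± 391; SD, n = 3), which was 0.429% of all TPM. The 10 highest genes held 57.9% of this sum.

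**Figure D1:**
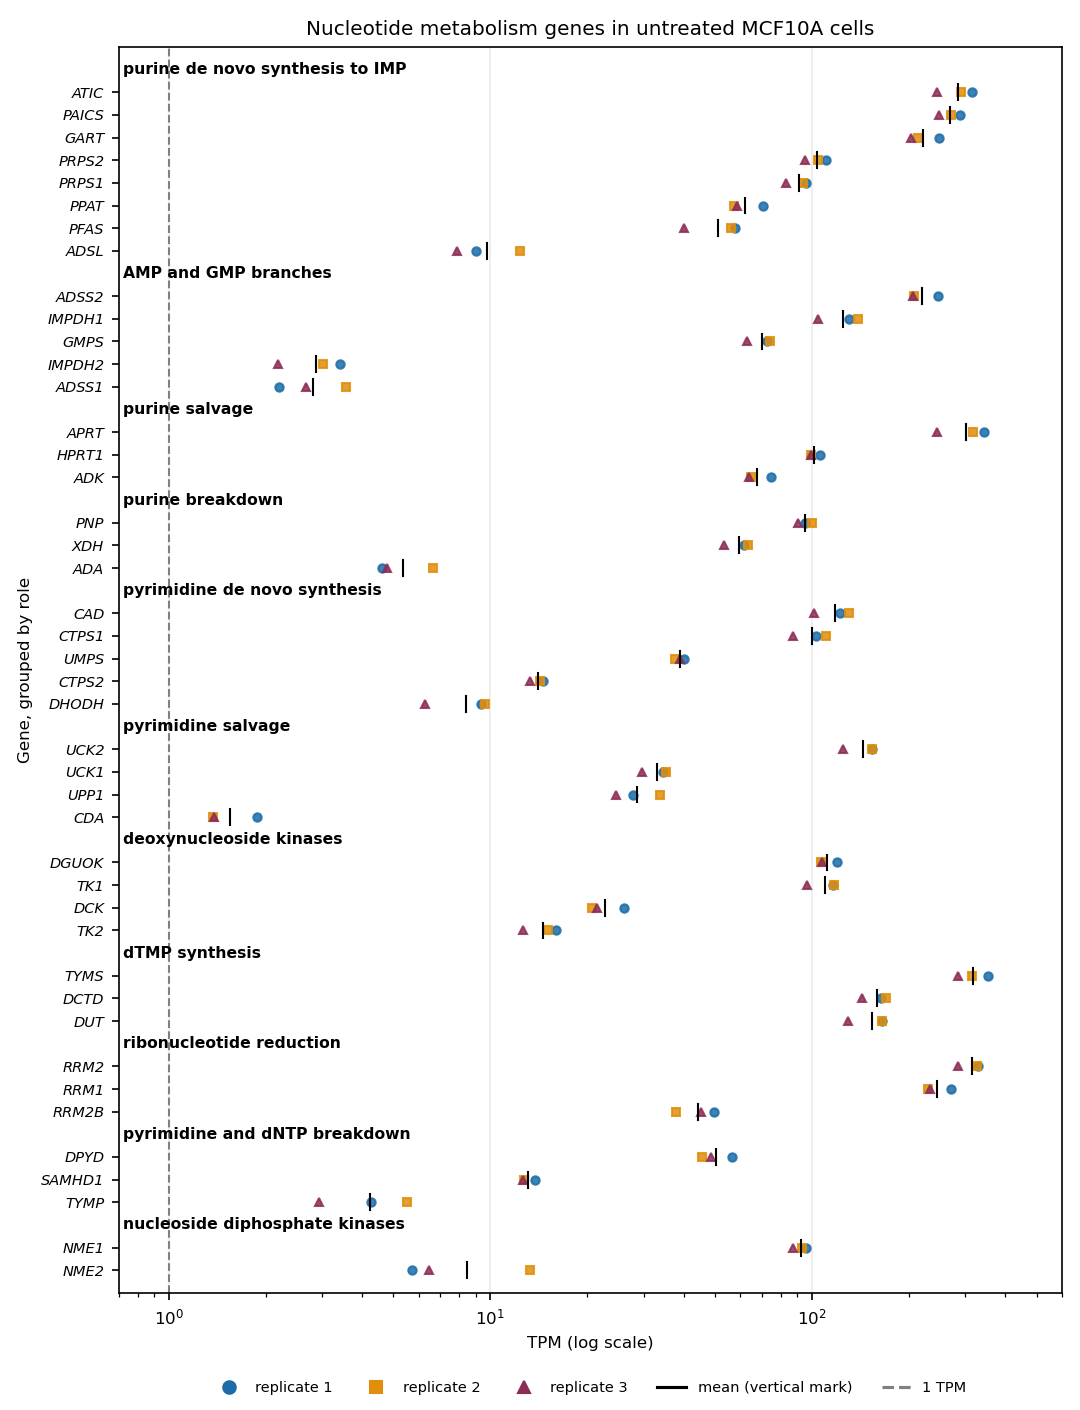
TPM of the 43 genes in each replicate (points, log axis), grouped by role, with the mean of the 3 replicates as a vertical mark and the cutoff of 1 TPM as a dashed line. Every point lies to the right of 1 TPM. In most roles the members span more than a factor of 10, in some of them through ADSL, TYMP or NME2, whose exons are partly shared with other genes. Over all roles the means run from 1.55 TPM for CDA to 317 TPM for TYMS.

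The first reactions of purine synthesis make the activated sugar PRPP and build the ring on it as far as IMP. The 8 genes of this route had the highest summed level of the 11 roles, with 1197, 1101 and 982 TPM in the 3 replicates (1093 ± 108; SD, n = 3). Every other role holds from 2 to 5 genes, so the rank of this sum also follows the number of genes. ATIC, which carries out the closing steps that form IMP, had 316, 291 and 245 TPM in replicates 1, 2 and 3 (284 ± 36.0 TPM; SD, n = 3). PAICS, which carboxylates the growing ring and adds aspartate, had 289, 271 and 249 TPM (269.8 ± 19.8 TPM). These genes exchanged places between replicates, with ATIC higher in 2 of 3, and their means differed by less than the larger SD. Per canonical length, ATIC was the higher in 3 of 3. GART, which catalyses 3 separate steps on 1 protein, followed at 222 ± 23.8 TPM. In deposited TPM its highest value, 248.6 TPM, was just below the lowest of PAICS, 249.2 TPM. Per canonical length their ranges overlapped, with GART up to 216 TPM and PAICS down to 207 TPM, although PAICS was the higher in each replicate. PPAT, the amidotransferase that commits PRPP to the purine route, and PFAS, which brings in a further nitrogen from glutamine, were measured at 62.2 ± 7.16 TPM and 51.2 ± 9.72 TPM. The values of PPAT and PFAS overlapped between replicates.

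PRPP itself is made by the synthetases PRPS1 and PRPS2, both encoded on chromosome X. PRPS1 had 96.2, 94.1 and 82.9 TPM, and PRPS2 had 111, 104 and 95.4 TPM. PRPS2 was the higher in 3 of 3 replicates, by 1.14-fold (log2 ratio of PRPS1 to PRPS2 -0.18 ± 0.03; SD, n = 3), although the ranges of both genes over the replicates overlapped. With 1 condition, ratios taken within a replicate are descriptions, and an exact sign-flip permutation test over 3 replicates cannot give a two-sided p below 0.25.

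ADSL was the lowest gene of the route. It splits fumarate from an intermediate on the way to IMP and again on the way to AMP, and so serves both. It had 9.04, 12.4 and 7.88 TPM (9.78 ± 2.35 TPM; SD, n = 3), from 236, 333 and 175 reads, and did not overlap with PFAS, the next gene above it. Of the coding bases of ADSL (chr22:40346461-40390463 of hg38, plus strand), 89.9% are shared with a protein-coding gene annotated over it on the same strand, ENSG00000284431, which held 4, 1 and 3 reads. Over the whole canonical transcript of ADSL, untranslated regions included, 30.6% of bases are shared.

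PPAT and PAICS, which both act on the route to IMP, are neighbours on chromosome 4. They are transcribed away from each other with 125 bases between their starts in GENCODE, PPAT on the minus strand (chr4:56393362-56435615) and PAICS on the plus strand (chr4:56435741-56464578). Their levels were not alike, since PAICS had a mean of 269.8 TPM and PPAT of 62.2 TPM, and the lowest replicate of PAICS was above the highest of PPAT. The stretch between both genes is shown because it lies upstream of both (RefSeq, GRCh38.p14, chr4:56435616-56435740, plus strand), with capitals at each GGGCGG, the core of the GC box bound by SP1:
PPAT-PAICS: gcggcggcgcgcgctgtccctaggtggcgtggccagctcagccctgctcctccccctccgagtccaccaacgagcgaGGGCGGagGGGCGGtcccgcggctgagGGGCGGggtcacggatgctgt
The stretch holds 3 matches to GGGCGG, read on both strands, and its GC content is 76.0%, against a median of 60.0% over RefSeq promoter windows. A match to this motif was present in 34.5% of 35116 RefSeq promoter windows of all genes, and in 24 of the 40 nucleotide genes that the promoter table holds. The E-box CACGTG, which is the motif of MYC, and the motif CCAAT were not found in the stretch. They were present in 4% and 21.0% of all promoter windows, and in 2 and 10 of the 40 genes. A match is a description of the letters, and binding was not measured.

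IMP is turned into AMP by adenylosuccinate synthase and ADSL, and into GMP by IMP dehydrogenase and GMPS. The 5 genes of both branches summed to 421 ± 39.2 TPM (SD, n = 3). GMPS, the enzyme that aminates xanthosine monophosphate to GMP, was measured at 69.8 ± 5.94 TPM. In each branch, 1 isoenzyme was recorded at a much higher level than the other.

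For AMP, ADSS2 had 247, 208 and 206 TPM (220.5 ± 23.0 TPM; SD, n = 3), and ADSS1, known as the form of muscle, had 2.20, 3.56 and 2.67 TPM (2.81 ± 0.694 TPM) from 30, 50 and 31 reads. ADSS2 was the higher in 3 of 3 replicates by 79.7-fold per length of the longest transcript, with a log2 ratio of ADSS1 to ADSS2 of -6.32 ± 0.47. With the length of the canonical transcript, the reference isoform that the annotation marks for each gene, the fold was 52.8 (log2 ratio -5.72). The canonical transcript of ADSS1 shares no base with another gene on its strand, and that of ADSS2 shares 6.14%.

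For GMP, IMPDH1 had 131, 139 and 104 TPM (125 ± 18.3 TPM; SD, n = 3) and IMPDH2 had 3.40, 3.01 and 2.18 TPM (2.87 ± 0.624 TPM), from 88, 80 and 48 reads. IMPDH catalyses the rate-limiting step of guanine nucleotide synthesis, and IMPDH2 is known as the form that is abundant in proliferating cells. The recorded ratio of IMPDH1 to IMPDH2 was 43.9-fold per length of the longest transcript (log2 ratio 5.46 ± 0.17) and 14.7-fold per canonical length (3.88). The value of IMPDH2 cannot be read as its expression. Of its canonical transcript (IMPDH2, chr3:49024325-49029447 of hg38, minus strand), 98.8% of bases, and 100% of its coding bases, also belong to a protein-coding gene annotated over it in the same orientation, ENSG00000290315, which was listed at 0 reads in every replicate. Only 20 of 1651 canonical bases belong to IMPDH2 alone. Over the exons of all its annotated transcripts, 3443 of 5123 bases are unshared. How the counting treated reads in exons of more than 1 gene is not given in the sources used here, and its part in this level was not tested.

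The shared exons of IMPDH2 are those of an overlapping annotated gene and not of its paralog on chromosome 7, whose sequence differs from it. The coding sequences of IMPDH1 and IMPDH2 are identical at 76.7% of aligned bases, and their longest identical run is 17 bases. The 47-base windows around that run are shown from the GENCODE transcripts, with capitals where the sequences differ:
IMPDH1: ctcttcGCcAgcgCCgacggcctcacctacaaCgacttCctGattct
IMPDH2: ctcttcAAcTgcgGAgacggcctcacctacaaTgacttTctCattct
The window of IMPDH1 is at bases 322 to 368 of its coding sequence (chr7:128403740-128405798, minus strand) and that of IMPDH2 at bases 67 to 113 (chr3:49028792-49029284, minus strand). Both span an intron, and the windows differ at 8 bases. The annotation names 10 pseudogenes of IMPDH1. These held 140 reads in all, 2.83% of the 4955 reads of IMPDH1, and IMPDH1P5 and IMPDH1P8 were at or above 1 TPM. Of the 50-base windows of IMPDH1, 11.5% also occur in annotated transcripts of other genes.

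**Figure D2:**
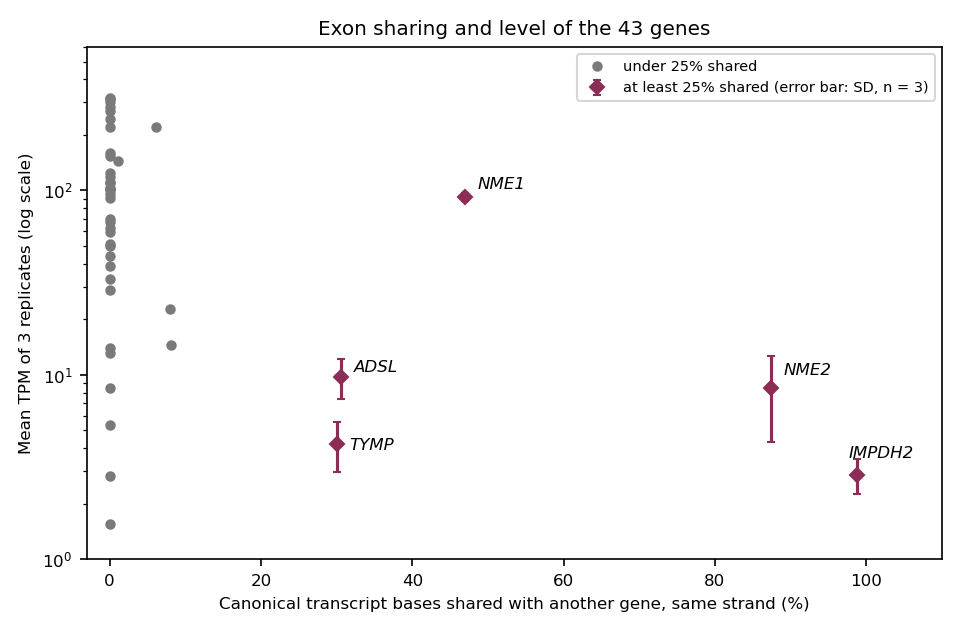
Mean TPM of the 43 genes (log axis) against the percentage of the bases of the canonical transcript that lie in exons of other genes in the same orientation. Points are genes, and diamonds with error bars (SD, n = 3) mark the 5 genes with at least 25% shared, of which IMPDH2 and NME2 have the highest shares at 98.8% and 87.4%.

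Exon sharing of at least 25% of the canonical transcript was found for 5 of the 43 genes (8.58% of protein-coding genes), which were IMPDH2, NME2, NME1, ADSL and TYMP. Of the others, 34 shared no base and 4 shared from 1.17% to 8.13%. In the background, 58.5% of the 17057 protein-coding genes without a shared base were at or above 1 TPM, with a median of 26.8 TPM among those that were. Of the 1059 protein-coding genes with at least 75% shared, 12.6% were at or above 1 TPM, with a median of 2.32 TPM. IMPDH2 and NME2 belong to the latter class and were above its median. The levels of these 5 genes are given as recorded values.

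Salvage of purines had a summed level of 471 ± 57.8 TPM (SD, n = 3). APRT, which returns adenine to AMP, had 342, 318 and 245 TPM (302 ± 50.5 TPM). HPRT1, which returns hypoxanthine and guanine to IMP and GMP, had 106, 99.4 and 99.8 TPM (102 ± 3.70 TPM). ADK, which phosphorylates adenosine, had 74.6, 64.5 and 63.8 TPM (67.6 ± 6.04 TPM). In deposited TPM, the order of APRT over HPRT1 over ADK was the same in all 3 replicates, and no ranges overlapped. Per canonical length, ADK was above HPRT1 in 3 of 3 replicates, at 88.9 and 82.7 TPM by the mean. The coefficient of variation of HPRT1, used at times as a reference gene, was 3.64% in deposited TPM and 6.33% when scaled to protein-coding genes, and that of APRT was 16.7% and 9.80%.

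In purine breakdown, PNP, which splits inosine and guanosine into base and ribose phosphate, had 95.4, 100.1 and 90.5 TPM (95.4 ± 4.80 TPM; SD, n = 3). XDH, which oxidizes hypoxanthine and xanthine to uric acid and is known as a major protein of the milk fat globule in mammary epithelium, was measured at 59.4 ± 5.37 TPM. ADA, which deaminates adenosine and deoxyadenosine, was the lowest with 4.62, 6.66 and 4.79 TPM (5.35 ± 1.13 TPM) from 145, 215 and 128 reads. The ranges of the 3 genes lay apart in this order. PNP and ADA depended on the choice of gene length, since the longest transcript of ADA has 5965 bases and its canonical transcript 1496, and that of PNP 4729 and 1477. Per canonical length, ADA was at 17.5 TPM and PNP at 249.8 TPM, so that PNP moved from rank 19 to rank 4 among the 43 genes.

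Pyrimidine synthesis begins with CAD, a single protein that carries out the opening 3 reactions, and passes through DHODH in the inner mitochondrial membrane to UMPS, which forms UMP. CAD had 123, 130.2 and 102 TPM (118 ± 14.7 TPM; SD, n = 3) and was the highest of the 5 genes in each replicate in deposited TPM. Per canonical length, CTPS1 was above it in each replicate, with 156, 168 and 136 TPM against 99.2, 105 and 84.1 TPM for CAD. UMPS, with 39.9, 37.6 and 38.99 TPM (38.8 ± 1.19 TPM), had the smallest spread of all 43 genes in deposited TPM, with an SD of log2(TPM + 1) of 0.04, but was at 0.12 when scaled to protein-coding genes, above the median of 0.0943 over the 43 genes under that scaling. DHODH was the lowest with 9.38, 9.66 and 6.25 TPM (8.43 ± 1.89 TPM), from 238, 252 and 135 reads. Replicate 3 lay below both others for CAD and DHODH, but not for UMPS, where replicate 2 was the lowest.

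CTP is formed from UTP by the CTP synthases. CTPS1, the form that proliferating lymphocytes are known to need, had 103, 110.4 and 87.5 TPM (100.2 ± 11.7 TPM; SD, n = 3), and CTPS2 had 14.6, 14.3 and 13.3 TPM (14.0 ± 0.671 TPM). CTPS1 was the higher in 3 of 3 replicates by 7.12-fold (log2 ratio 2.83 ± 0.12), and by 12.2-fold per canonical length, since its longest transcript has 5325 bases and its canonical one 2840. The difference was larger than the spread between replicates under both lengths.

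For the salvage of pyrimidines, uridine and cytidine are phosphorylated by UCK1 and UCK2, uridine is split by UPP1, and cytidine is deaminated by CDA. UCK2 had 154, 154 and 125 TPM (145 ± 16.5 TPM; SD, n = 3) and UCK1 had 34.5, 35.1 and 29.7 TPM (33.1 ± 2.95 TPM). UCK2 was the higher in 3 of 3 replicates by 4.36-fold, and this ratio had a narrow spread (log2 ratio of UCK1 to UCK2 -2.12 ± 0.04). UPP1 was measured at 28.7 ± 4.59 TPM, with a range that overlapped that of UCK1. Per canonical length, UPP1 was above UCK1 in 3 of 3 replicates, at 39.1 and 27.9 TPM by the mean. CDA was the lowest of the 43 genes, with 1.89, 1.38 and 1.39 TPM (1.55 ± 0.292 TPM) from 8, 6 and 5 reads. At the length of CDA, 3 reads correspond to 0.707, 0.688 and 0.831 TPM, so its values in all replicates were only a few reads above that limit. A cutoff of 2 TPM in place of 1 would leave CDA out, as the only 1 of the 43 genes.

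Deoxynucleosides are phosphorylated by TK1 and DCK in the cytosol and by TK2 and DGUOK in mitochondria. TK1, which is known to be expressed in S phase, had 116, 117 and 96.4 TPM (109.8 ± 11.7 TPM; SD, n = 3), and TK2, for thymidine and deoxycytidine in mitochondria, had 16.0, 15.1 and 12.6 TPM (14.6 ± 1.76 TPM). TK1 was higher by 7.55-fold, in 3 of 3 replicates (log2 ratio 2.92 ± 0.05). DGUOK, the mitochondrial kinase of purine deoxynucleosides, had 119.7, 107 and 108 TPM (111 ± 7.15 TPM), and DCK, the cytosolic kinase of deoxycytidine, had 26.1, 20.8 and 21.4 TPM (22.8 ± 2.91 TPM). DGUOK was higher by 4.92-fold in 3 of 3 replicates (log2 ratio of DCK to DGUOK -2.30 ± 0.09). The higher member was thus the cytosolic enzyme in the TK pair and the mitochondrial one in the other pair. DGUOK and TK1 exchanged places between replicates and differed by less than their SD in deposited TPM, and TK1 was the higher in 3 of 3 per canonical length.

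Thymidylate (dTMP) is made from dUMP, which DCTD forms from dCMP and DUT from dUTP. The 3 genes of this role summed to 630.1 ± 64.8 TPM (SD, n = 3). TYMS, the synthase that methylates dUMP and the target of fluorouracil, had 353, 314 and 285 TPM (317 ± 34.2 TPM) and the highest mean of the 43 genes, although it differed by less than the SD from RRM2, which was above it in 2 of 3 replicates. DCTD was measured at 159 ± 14.0 TPM. DUT had 165, 166 and 129 TPM (154 ± 20.9 TPM). Their overlapping values did not keep 1 order in all replicates. The canonical transcript of TYMS is overlapped over 66.5% of its bases by ENOSF1 on the opposite strand, which had 19.5, 29.6 and 19.4 TPM (22.8 ± 5.86). The use of strand in counting is not given in the sources used here, and without it reads of the 2 genes cannot be told apart where they overlap.

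Ribonucleotide reductase turns ribonucleotides into deoxynucleotides with a large subunit, RRM1, and a small subunit, RRM2 in dividing cells or RRM2B, which p53 induces. RRM2 had 329.8, 326 and 286 TPM (314 ± 24.4 TPM; SD, n = 3) and RRM1 had 271, 230.2 and 233 TPM (244 ± 22.7 TPM). RRM2B had 49.8, 37.8 and 45.3 TPM (44.3 ± 6.07 TPM). The order was the same in all 3 replicates and no ranges overlapped. RRM2 was above RRM2B by 7.12-fold (log2 ratio 2.83 ± 0.24). In deposited TPM, RRM2B and UMPS were the only genes of the 43 whose replicate 3 was not below the mean of replicates 1 and 2.

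Enzymes of breakdown of pyrimidines and deoxynucleotides had the lowest summed level of the 11 roles, at 67.5 ± 6.07 TPM (SD, n = 3). DPYD, which reduces uracil and thymine as the opening step of their degradation, had 56.4, 45.5 and 48.7 TPM (50.2 ± 5.60 TPM). SAMHD1, which hydrolyses dNTPs, was measured at 13.1 ± 0.662 TPM. TYMP, which splits thymidine, was the lowest with 4.26, 5.50 and 2.94 TPM (4.24 ± 1.28 TPM) from 46, 61 and 27 reads. Of the canonical bases of TYMP (chr22:50525752-50530032, minus strand), 30.0% are shared with SCO2 or ODF3B on the same strand, which had 45.4, 46.1 and 29.5 TPM and 0.110, 0.537 and 0.519 TPM. SCO2 and TYMP both had their lowest value in replicate 3 and their highest in replicate 2. This order is not particular to them. Replicate 3 was the lowest for 78.5% of protein-coding genes at or above 1 TPM, and CAD and DUT, for example, had the same order.

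Nucleoside diphosphate kinases supply triphosphates from diphosphates, and NME1 and NME2 are the abundant cytosolic subunits. NME1 had 96.0, 93.4 and 87.4 TPM (92.2 ± 4.40 TPM; SD, n = 3) from 830, 830 and 643 reads, and NME2 had 5.72, 13.3 and 6.47 TPM (8.49 ± 4.16 TPM) from 26, 62 and 25 reads. The recorded ratio was 11.7-fold per length of the longest transcript and 17.2-fold per canonical length, with a wide spread (log2 ratio 3.55 ± 0.65). Neither value can be read as the expression of the gene alone. NME1 (chr17:51153559-51162428) and NME2 (chr17:51165435-51171744) lie in a row on the plus strand, and the readthrough gene NME1-NME2, which was listed at 0 reads, covers 74.8% of the coding bases of NME1 and 100% of those of NME2. Only 87 of 690 canonical bases of NME2 belong to it alone, against 472 of 890 for NME1. Over the exons of all annotated transcripts, 1893 of 2496 bases of NME2 and 2777 of 3415 of NME1 are unshared. The treatment of shared reads in counting was not tested here either.

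NME1 and NME2 are also the most alike of the 9 pairs in sequence. Their coding sequences, of 456 bases each, are identical at 80.9% of bases, with a longest identical run of 23 bases. The 53-base windows around that run, at bases 208 to 260 of both coding sequences, are shown with capitals where they differ:
NME1: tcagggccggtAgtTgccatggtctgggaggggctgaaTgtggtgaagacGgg
NME2: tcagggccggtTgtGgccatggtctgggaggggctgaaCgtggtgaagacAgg
The windows differ at 4 bases and span an intron, at chr17:51160061-51161191 for NME1 and chr17:51168323-51169968 for NME2. The processed pseudogene NME2P1 held 13 reads, which was 11.5% of the 113 reads of NME2. Over all 12 genes with a named pseudogene, 43 pseudogenes were listed, of which 32 held no read and 4 were at or above 1 TPM, namely IMPDH1P5, IMPDH1P8, NME2P1 and PAICSP4.

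**Figure D3:**
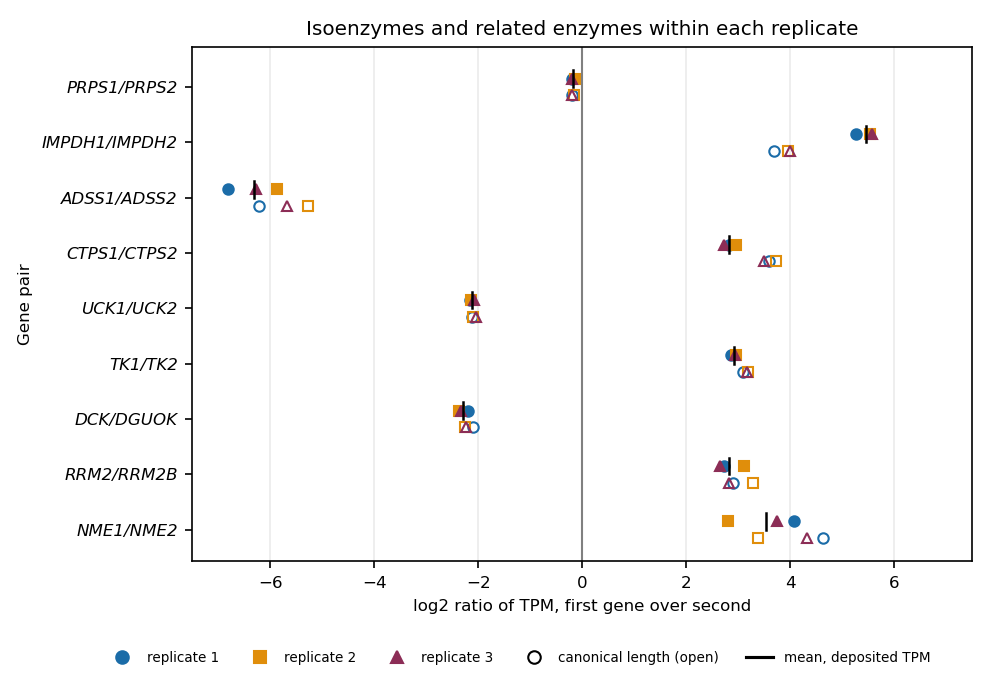
Log2 ratio of TPM of the first over the second gene of 9 pairs within each replicate, from deposited TPM (filled) and with the canonical transcript length (open), with the mean of the deposited ratios as a black mark. All 3 replicates lie on the same side of 0 in each pair under both lengths, from -6.32 for ADSS1/ADSS2 to 5.46 for IMPDH1/IMPDH2 by the mean.

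Across the 9 pairs, the same gene was higher in 3 of 3 replicates in each pair and under both gene lengths. The folds were from 1.14 for PRPS2 over PRPS1 to 79.7 for ADSS2 over ADSS1, and the ratios of the IMPDH and NME pairs carry the limit of shared exons. The other 7 pairs contain no gene with at least 25% of its canonical transcript shared, but of the coding bases, 32.3% of TK2 and 25.5% of DCK are shared. The gene shared with DCK is MOB1B, which had 20.9, 18.2 and 18.9 TPM, and that shared with TK2 is ENSG00000260851, listed at 0 reads. Identity of aligned coding bases was from 60.9% for TK1/TK2 and DCK/DGUOK to 80.9% for NME1/NME2, and the longest identical run in any pair was 23 bases.

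When the 43 genes were ordered by the mean, most neighbours in the order overlapped. Of 42 pairs of neighbours, 6 had ranges that did not overlap, and 12 had a difference of means above the larger SD. Within replicates, the gene with the higher mean was the higher in 3 of 3 replicates for 23 of the 42. The ranges lay apart between ADSS2 and DCTD, PRPS1 and GMPS, UMPS and UCK1, DCK and TK2, SAMHD1 and ADSL, and ADSS1 and CDA. The 8 highest genes, from TYMS to ADSS2, lay apart from the rest in deposited TPM. None of them was apart from its direct neighbour among the 8. Genes farther apart in the order were, such as RRM2 above RRM1 and, in deposited TPM only, PAICS above GART. Per canonical length, PNP entered at rank 4 and ADSS2 was at rank 9. The 8 genes belong to purine synthesis (ATIC, PAICS, GART), its AMP branch (ADSS2), adenine salvage (APRT), reduction (RRM1, RRM2) and dTMP synthesis (TYMS).

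The spread between replicates was small for most of the genes. The SD of log2(TPM + 1) had a median of 0.16 over the 43 genes, from 0.04 for UMPS to 0.59 for NME2, and the same median of 0.16 over protein-coding genes at or above 1 TPM. On log2 of deposited TPM, without the added 1, the SD was larger than counting error alone would give for 39 of the 43 genes. The median ratio of both over the 43 genes was 3.37. HPRT1, CTPS2, SAMHD1 and CDA were the 4 genes below counting error in deposited TPM. The genes with the widest spread after NME2 were TYMP, DHODH and ADSL, with SDs of 0.36, 0.31 and 0.31 and means below 10 TPM. Scaled to protein-coding genes, the median SD was 0.0943, with PRPS1 the lowest and NME2 the highest. PRPS1 was then at 0.007, below its counting error of 0.047, and HPRT1 at 0.090, above its counting error of 0.054. The comparison with counting error thus depends on the scaling. Without replicate 3 the median SD of the 43 genes was 0.0717 in place of 0.157.

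In deposited TPM, the 43 genes differed in replicate 3 much as other protein-coding genes did. Replicate 3 was the lowest for 31 of the 43 genes, which is 72.1% beside the background of 78.5%. Replicate 2 was the lowest for 9 genes (13.4% of protein-coding genes at or above 1 TPM), and replicate 1 for 3 (8.14%). The log2 ratio of replicate 3 to the mean of replicates 1 and 2 had a median of -0.22 over the 43 genes and of -0.24 over protein-coding genes of at least 10 TPM. For the latter, the 5th to 95th percentiles were -0.49 to 0.02, and 33 of the 35 nucleotide genes of at least 10 TPM lay within them. PFAS, at -0.50, was below and RRM2B, at 0.05, was above. Among genes of at least 100 TPM, APRT had the lowest ratio, at -0.43. These counts rest on the scaling. With TPM scaled to a total of 1000000 over protein-coding genes alone, all values of replicates 1, 2 and 3 moved by 0.13, 0.16 and 0.33 on the log2 scale, and the 43 genes summed to 5061, 4880 and 4853. Replicate 3 was then the lowest for 18 of the 43 genes, beside 45.9% of protein-coding genes, and replicate 2 also for 18, beside 29.6%. The median log2 ratio of replicate 3 became -0.03 over the 43 genes and -0.05 over protein-coding genes of at least 10 TPM. CAD, DHODH and TYMP kept their lowest value in replicate 3 under this scaling.

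**Figure D4:**
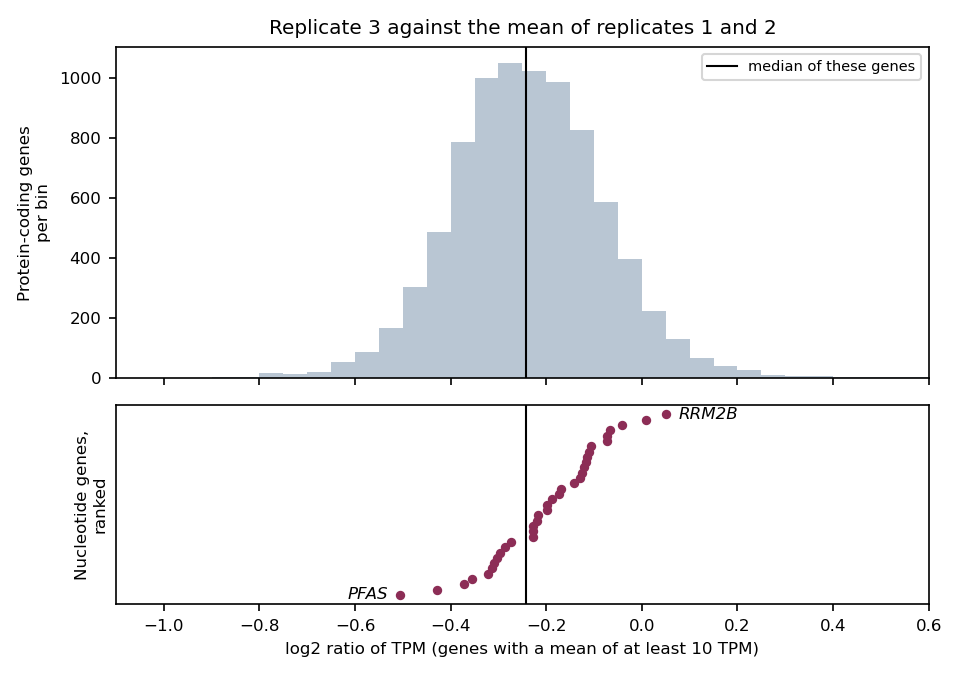
Log2 ratio of TPM in replicate 3 to the mean of replicates 1 and 2, as the number of protein-coding genes of at least 10 TPM per bin (top) and for the 35 nucleotide genes of at least 10 TPM in ranked order (bottom). The vertical line is the median of the protein-coding genes, at -0.24, and the nucleotide genes spread on both sides of it from PFAS at -0.50 to RRM2B at 0.05.

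The choice of gene length was a further source of difference, and it differed between members. Reads divided by the canonical length and rescaled to the same total gave a median of 0.823 times the deposited value over the 43 genes. For 7 genes the ratio was more than 1.5 times this median, namely IMPDH2, ADK, ADA, PNP, CTPS1, UPP1 and NME1, with 3.26-fold for ADA as the highest. Per canonical length, RRM2 (289 TPM), ATIC (266 TPM), TYMS (258 TPM) and PNP (249.8 TPM) were the highest, and CDA remained the lowest at 1.26 TPM. Which transcripts were present was not measured by these values, so neither length can be preferred from them.

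**Figure D5:**
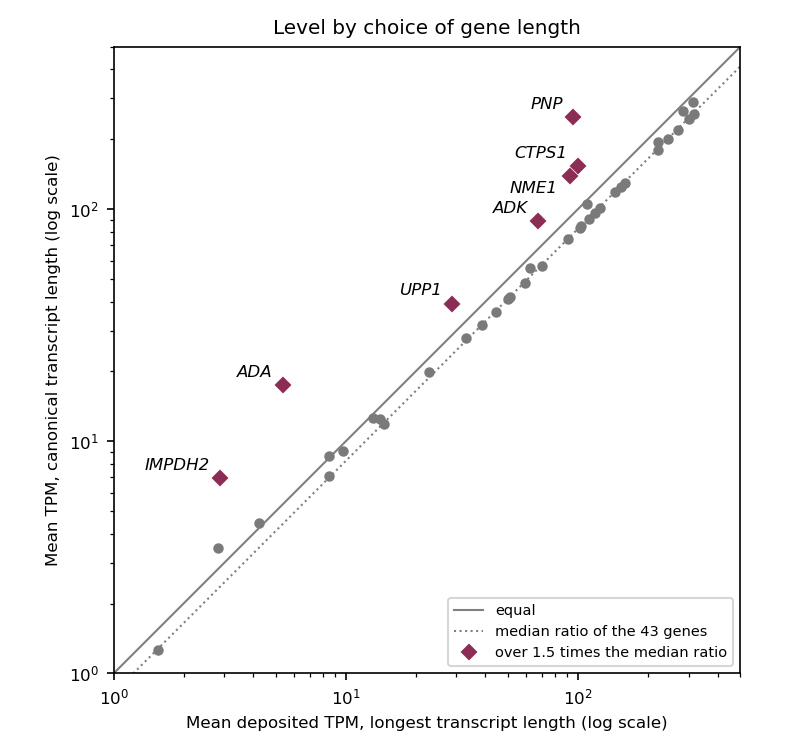
Mean TPM of the 43 genes with the canonical transcript length against the deposited mean (both log axes), with the line of equal values and the line of the median ratio of 0.823. The 7 diamonds are the genes with a ratio above 1.5 times the median, led by ADA and PNP with ratios of 3.26 and 2.62.

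A further 51 genes of nucleotide metabolism and transport, listed by class, were read beside the 43. Of these, 33 were at or above 1 TPM, 18 were below it and 7 had 0 reads in all replicates. The nucleoside monophosphate kinases, which make diphosphates from monophosphates, included GUK1 for GMP at 268 ± 30.6 TPM, DTYMK for dTMP at 199.7 ± 22.6 TPM and CMPK1 for UMP and CMP at 129.7 ± 10.7 TPM (SD, n = 3 each), whereas AK5, AK7, AK8 and CMPK2 were below 1 TPM. NT5E, the nucleotidase CD73 on the cell surface that forms adenosine, was the highest nucleotidase at 260.0 ± 22.3 TPM, and NT5C1A and NT5C1B were below 1 TPM, with 63.5% of the canonical transcript of NT5C1B shared with another gene. Among nucleoside transporters the equilibrative SLC29A1 was measured at 144 ± 17.0 TPM, and the concentrative SLC28A1, SLC28A2 and SLC28A3 as well as SLC29A4 were below 1 TPM. Enzymes that clean the pool of damaged or unwanted nucleotides were all 4 above 1 TPM, with DCTPP1 the highest at 178 ± 17.5 TPM. PRPSAP2, a partner of PRPP synthetase, at 33.6 TPM, GMPR2, which reduces GMP to IMP, at 52.3 TPM, NME4, a mitochondrial kinase, at 77.0 TPM and UCKL1, a relative of the uridine kinases, at 37.8 TPM were the highest of their classes.

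Some of the genes below 1 TPM act next to enzymes of the 43 genes. DPYS and UPB1, which carry pyrimidine breakdown on after DPYD, had 1 read and 0 reads over all replicates, although DPYD was at 50.2 TPM. MTAP, which salvages adenine from methylthioadenosine and so feeds APRT, had 0 reads in each replicate, which at its length allows up to 0.0754, 0.0734 and 0.0886 TPM by reads assigned to it. Another gene in the same orientation covers 7.63% of the bases of its canonical transcript and 40.9% of its coding bases. The remaining genes below 1 TPM were PRPS1L1, AMPD1, GDA, ADA2 and UPP2, which are known from testis, muscle and other tissues or as secreted or additional forms of enzymes described above.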

How the data were processed

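RNA-seq was measured in 3 replicates of 1 condition and 1 batch of untreated MCF10A cells. Per the methods of the study, reads were processed with Seq2science on hg38, and the submitters' processing notes name fastp, STAR and MultiQC without versions. The annotation release, the counting tool and the use of strand are not given in the sources used here. The authors deposited TPM for 62754 genes, not pooled over replicates, and all columns were used (0 left out).

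Genes, positions and transcripts were taken from GENCODE 44 on hg38, which held 62700 of the 62754 genes. Reads were recovered from TPM with the length of the longest transcript, less 1 base per exon, as multiples of the smallest step. They were whole within 0.001 for 100% of values in each replicate, and totals rest on the step being 1 read. On simulated data of 62700 genes, 100% of reads were returned. The same lengths made and inverted these data, so the lengths and the step of 1 read were not tested by it. TPM does not keep depth by itself, and 3 reads were taken as the limit behind a value of 0. The replicates were not 1 library deposited more than once, since the mean chi-square per gene between their reads was 6.02 to 14.2.

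The data hold 1 condition, so no groups were compared and no test was run. Levels are means with the SD of 3 replicates, ratios were taken within replicates on log2 of TPM, and spreads are SDs of log2(TPM + 1) over genes of at least 1 TPM. Sharing was counted over bases of canonical transcripts on the same strand. Values per replicate are given for the 9 pairs, for the highest and lowest gene of each role and for genes with at least 25% of bases shared. Of related genes, the highest of each class and all below 1 TPM are named. DTYMK and CMPK1, and the genes named for spread, length or replicate 3, were chosen after their values were seen. The lowest replicate and spread of each gene under the protein-coding scaling, and the order within roles per canonical length, were chosen after seeing the data. The 43 genes, the 51 related genes, the pairs and the rules were chosen with earlier results of these data known. Alternatives covered the cutoff, the summary of replicates, the scaling, the gene length, the pseudocount, the filter on low values and leaving out each replicate. Promoter windows were taken from RefSeq (GRCh38.p14). Scripts ran in Python 3.11.15, with biopython 1.88, matplotlib 3.10.9, numpy 2.4.6 and pandas 2.3.3.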

Additional observations from a re-analysis of the deposited data

How the results depend on the processing

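No paired analysis was possible because the series has 1 condition, so that no groups share replicate numbers. The count of 43 genes at or above 1 TPM was 43 per canonical length and 42 with a cutoff of 2 TPM. It was also 43 under the other scalings and summaries and without any 1 replicate. Those alternatives could not have lowered it. Every gene was at or above 1 TPM in each replicate, and the other scalings only raise TPM. With protein-coding genes summing to 1000000, the summed TPM was 4931 in place of 4293, and the median SD was 0.0943 in place of 0.157. Leaving out 1 replicate gave sums of 4123 to 4507 TPM and median SDs of 0.0717 to 0.165, with the lowest, 0.0717, without replicate 3. With log2(TPM + 1), the log2 ratio was 5.03 for IMPDH1/IMPDH2 and 2.83 for TK1/TK2. Per canonical length, it was 3.88 for IMPDH1/IMPDH2, -5.72 for ADSS1/ADSS2, 3.61 for CTPS1/CTPS2, 3.15 for TK1/TK2 and -2.19 for DCK/DGUOK. In these alternatives no pair changed sign, which only the change of gene length could have brought about. Of 58 values of the sum, the spread and the ratios under an alternative, 48 moved by less than the spread between replicates and 10 by more. Part of the 48 was fixed in advance. Leaving out 1 of 3 replicates always moves a mean by less than its SD, so the sum and the ratios could not have moved by more. The median SD without the filter on low values was the same by construction, since every gene passes that filter. Levels of genes with few reads, CDA with 19 and ADSS1 with 111 reads in all, are limited by depth, and those of IMPDH2, NME1, NME2, ADSL and TYMP by shared exons.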
